A study of Mus musculus with 32 samples.

Results

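The mouse mitochondrial genome carries 37 annotated genes, and all of them were measured here in the developing brain. The members were the symbols in the deposited gene tables that begin with mt-, which gave 37 of 55291 symbols. Of these, 13 encode proteins of the respiratory chain, 2 encode the ribosomal RNAs of the mitochondrial ribosome and 22 encode transfer RNAs (tRNAs). Every symbol matched a gene of that name on the mitochondrial chromosome in the GENCODE M21 annotation of build GRCm38, 28 on the plus strand and 9 on the minus strand.

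RNA came from brains of C57BL/6J mice that were wild type (WT, Dhcr7+/+) or lacked Dhcr7 (KO, Dhcr7-/-), the gene mutated in Smith-Lemli-Opitz syndrome. Its product carries out the final reaction that yields cholesterol. Brains were taken on the day of birth (PND0) and at 3 embryonic stages (E12.5, E14.5, E16.5), with 4 libraries in each of the 8 groups and no other treatment in the labels. Libraries were enriched for polyadenylated RNA and read as pairs of 150 bases, per the labels. Litter, sex and pooling are not given there, so the p-values measure the spread between these samples. Libraries held 13.87 to 28.32 M counts, and the level of Dhcr7 was 58.77 to 103.8 CPM (counts per M counts of a library, after scaling) in the 16 WT and 11.74 to 26.58 CPM in the 16 KO libraries. Each stage has its own table, and how the stages were split over preparations or runs is not given in the sources used here, so a difference between stages cannot be told apart from one between tables.

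Mitochondrial DNA is transcribed from both strands into long precursors, and tRNAs lying between the other genes are cut out to release the messenger and ribosomal RNAs. The proteins are core subunits of complex I (mt-Nd1 to mt-Nd6 and mt-Nd4l), complex III (mt-Cytb), complex IV (mt-Co1 to mt-Co3) and the ATP synthase (mt-Atp6 and mt-Atp8), and all their partner subunits are nuclear. Mitochondrial messenger RNAs have short poly(A) tails, the ribosomal RNAs shorter ones still, and mature tRNAs none, so poly(A) enrichment captures the classes unequally. Neurons depend on this system for most of their ATP, and it expands while the brain matures.

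Some libraries stood apart. The gene CT010467.1, a nuclear ribosomal RNA sequence with no poly(A) tail, was highest in KO replicate 1 of E12.5, with 5.639% of the counts, and in WT replicate 1 of E16.5, with 3.754%. No other library had more than 2.785%. It took 2.679% and 2.553% in E14.5 KO replicates 3 and 4, against 1.032% and 0.869% in replicates 1 and 2. Values that rest on 1 of these libraries are given with and without it.

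Part of the mitochondrial genome also exists as a near-identical copy in the nucleus. Among all GENCODE transcripts, 7 pseudogenes in a block of 4663 bases on chromosome 1 (GRCm38, chr1:24611535-24616197, minus strand) matched mitochondrial genes in the order of the mitochondrial genome. Gm28661 matched 681 of the 684 bases of mt-Co2 with 0 mismatches, Gm10925 matched 678 of the 681 bases of mt-Atp6 with 0 mismatches, and Gm28437 matched 783 of the 784 bases of mt-Co3 with 0 mismatches. Gm10222 matched 294 of the 297 bases of mt-Nd4l with 0 mismatches, and Gm28438 matched 345 of the 348 bases of mt-Nd3 with 1 mismatch. The stretch between the copies of mt-Co2 and mt-Atp6, where mt-Atp8 lies, was 233 bases long on both chromosomes, but it has no transcript in the annotation, so the match of mt-Atp8 was not measured. Gm28439 matched the first 876 of the 1378 bases of mt-Nd4, and Gm29216 matched bases 1063 to 1545 of mt-Co1 with 1 mismatch. No chromosome 1 transcript matched another member with at least 50 bases and 90% identity. The search held transcripts only, so a match of mt-Ts1, mt-Td, mt-Tk, mt-Tg or mt-Tr, which lie between the matched genes, was not measured either.

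The first 150 bases of mt-Nd3, the length of 1 read, and the same bases of its copy are shown because a read from most of this gene fits both places. The capital marks the single difference, T3C, counted from the first base of mt-Nd3 (chrM:9459-9608, plus strand, and chr1:24612970-24613119, minus strand).
mt-Nd3: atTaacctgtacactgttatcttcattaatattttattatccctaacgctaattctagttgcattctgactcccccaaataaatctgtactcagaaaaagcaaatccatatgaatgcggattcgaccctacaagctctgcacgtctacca
Gm28438: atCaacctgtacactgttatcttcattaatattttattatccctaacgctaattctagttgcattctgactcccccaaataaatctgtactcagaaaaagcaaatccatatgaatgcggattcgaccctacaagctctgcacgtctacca
The start of the matched part of mt-Co1 (chrM:6390-6449) is shown beside Gm29216 (chr1:24616129-24616188, minus strand) because most of mt-Co1 lies outside the copy. Its single difference is A1066T, counted from the first base of mt-Co1.
mt-Co1: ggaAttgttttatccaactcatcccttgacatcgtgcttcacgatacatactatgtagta
Gm29216: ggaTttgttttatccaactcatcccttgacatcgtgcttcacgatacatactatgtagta

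Other members share bases with each other. The whole of mt-Atp8 (chrM:7766-7969, plus strand) is shown because 43 of its 204 bases, in capitals, are also the start of mt-Atp6, so a read across them belongs to both genes.
mt-Atp8: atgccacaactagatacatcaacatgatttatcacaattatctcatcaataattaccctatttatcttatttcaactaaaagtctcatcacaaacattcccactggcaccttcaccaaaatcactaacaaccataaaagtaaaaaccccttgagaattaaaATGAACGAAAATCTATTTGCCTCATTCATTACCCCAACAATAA
The last 60 bases of mt-Nd5 (chrM:13506-13565, plus strand) and of mt-Nd6 (chrM:13552-13611, minus strand) are shown because these opposite genes overlap by 14 bases, in capitals, and were high and low in the same PND0 libraries. Whether counting used the strand of a read is not given in the sources used here, so reads of either gene near the overlap cannot be told apart.
mt-Nd5: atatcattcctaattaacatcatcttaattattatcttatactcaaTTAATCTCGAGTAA
mt-Nd6: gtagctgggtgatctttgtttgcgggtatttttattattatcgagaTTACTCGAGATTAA
Transfer RNAs are shorter than 1 read, as mt-Tp (chrM:15356-15422, minus strand), the most counted, and mt-Tf (chrM:1-68, plus strand), never counted, show.
mt-Tp: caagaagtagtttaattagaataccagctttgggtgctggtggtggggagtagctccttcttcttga
mt-Tf: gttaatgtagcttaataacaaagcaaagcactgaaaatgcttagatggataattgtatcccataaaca

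Levels per length split the protein genes into 2 sets along the position of the nuclear copy. In WT, mt-Co1, the catalytic core of complex IV, had the highest level at each stage, with 2379 ± 157 CPM per kb at E12.5 and 5363 ± 432 CPM per kb at PND0 (SD, n = 4). It was followed by mt-Cytb with 1751 ± 65.5 and mt-Nd1 with 1449 ± 46.7 CPM per kb at E12.5. A whole copy here means one in the chromosome 1 block, and mt-Atp8, whose match was not measured, is set with the block by position. The lowest of the 7 genes without a whole copy at E12.5, mt-Nd5, stood at 427.6 ± 68.4 CPM per kb. Its neighbours in this order, mt-Nd4 at 445.1 ± 6.52 and mt-Nd6 at 484.4 CPM per kb (197.1 to 362.1 CPM in the 4 libraries), differed from it by less than their spread. All 6 genes inside the copied block were far lower, from 6.122 ± 0.861 CPM per kb for mt-Nd3 to 39.23 ± 15 CPM per kb for mt-Co2.

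**Figure D1:**
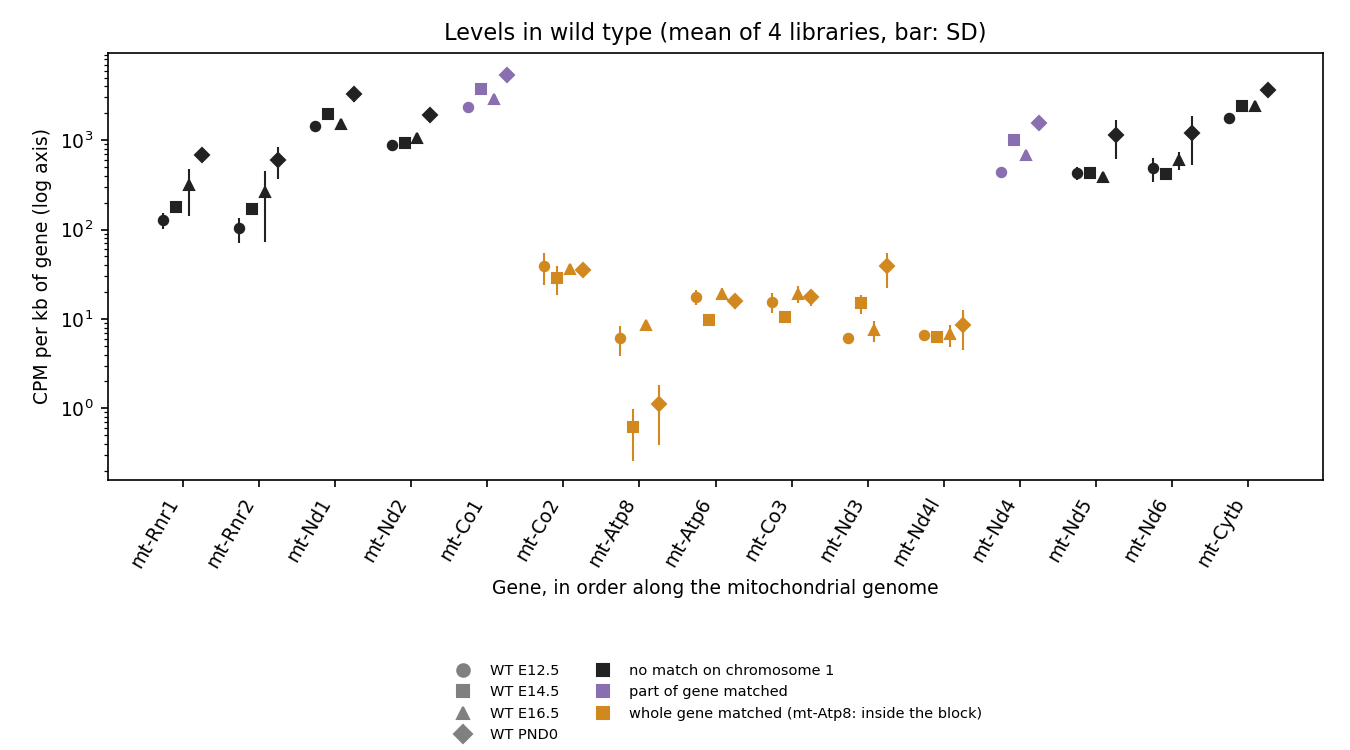
Level of each ribosomal RNA and protein gene in WT in CPM per kb of gene on a log axis, in genome order, with 1 point per stage (mean of 4 libraries, bar SD). The 6 genes inside the chromosome 1 block (orange) lie at or below 39.23 CPM per kb at each stage, while the 7 other protein genes lie at or above 386.2 CPM per kb.

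The genes inside the block, mt-Atp8 among them, made up 0.2516% to 0.7818% of the counts of the protein class in the 32 libraries, with a median of 0.4034%. Summed, they had 37.05 to 83.38 CPM, and the 7 pseudogenes had 32.23 to 78.75 CPM. For mt-Co2 the library counts were 276 to 1179, and for mt-Co1, its neighbour, 39492 to 175779. How reads that fit more than 1 place were counted is not given in the sources used here, so the part of this in the low levels was not tested. Weaker matches, at 90.67% to 97.61% identity, lay elsewhere for 7 protein genes. Gm13340 on chromosome 2 matched all of mt-Co1 at 97.61%, Gm11410 on chromosome 4 matched mt-Cytb at 92.91%, and Gm11408 beside it matched mt-Nd6 at 93.64%. These 3 genes were among the 7 with high levels. Weaker matches also lay elsewhere for mt-Co2 (Gm13341 on chromosome 2, 95.91%) and for parts of mt-Atp6 (93.58% and 94.83%), which were among the low. Among the tRNA genes, the protein-coding gene Cep295 on chromosome 9 matched all 71 bases of mt-Tn at 91.55%. It also matched 62 of the 75 bases of mt-Tl1 at 93.55%.

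Mitochondrially encoded genes took 0.8305% to 2.655% of all counts of a library. Within their counts over all libraries the protein class held 95.39%, the ribosomal RNAs 4.471% and the tRNAs 0.144%. The WT share of all members was 1.035% ± 0.0264, 1.438% ± 0.071, 1.295% ± 0.132 and 2.275% ± 0.315 (SD, n = 4) at the 4 stages in order of age. It was highest at birth in each genotype, and the 4 PND0 WT libraries, at 1.93% to 2.655%, did not overlap with any earlier WT library. The KO share was 1.021% ± 0.147, 1.538% ± 0.0771, 1.223% ± 0.0842 and 1.832% ± 0.307 at the same stages. WT and KO overlapped in this share at all 4 stages, and no test was made of a share, which sums over members.

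**Figure D2:**
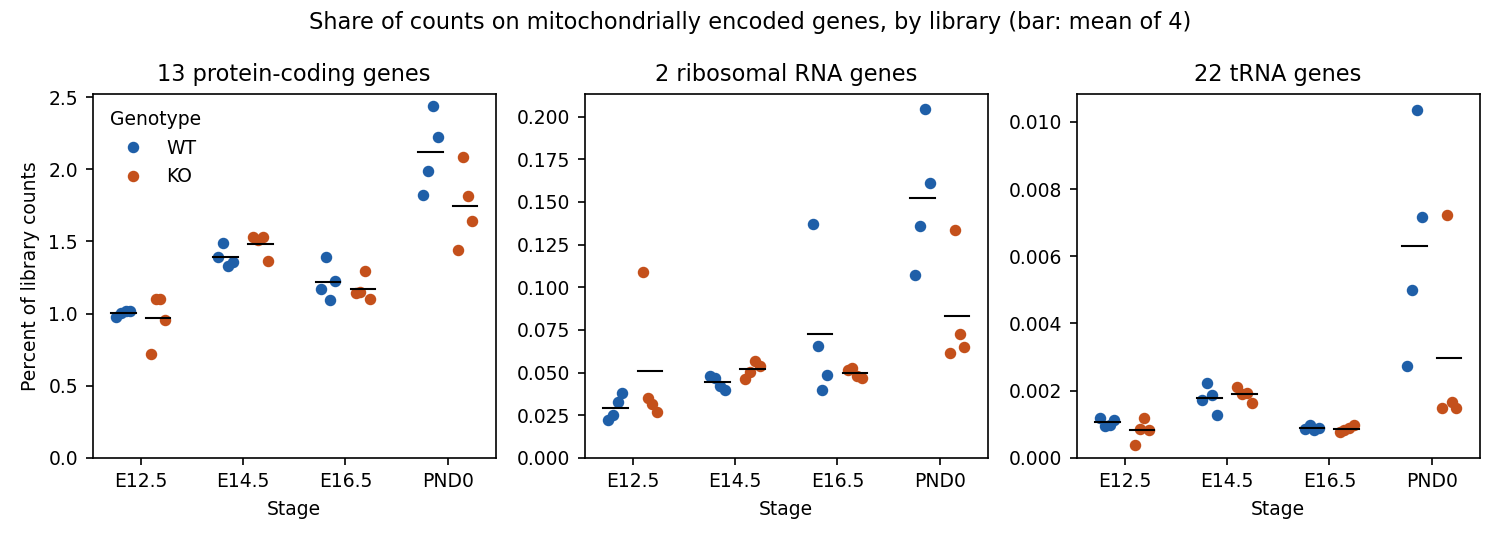
Percent of the counts of each library on the protein, ribosomal RNA and tRNA genes of the mitochondrial genome, by stage, with WT in blue, KO in orange and a bar at the mean of 4 libraries. The protein share was 1.821% to 2.44% in WT at PND0 and 0.9769% to 1.02% in WT at E12.5, and single high libraries mark the ribosomal RNA share at E12.5 in KO and at E16.5 in WT.

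The ribosomal RNA share in WT was 0.02944% ± 0.00723 at E12.5 and 0.1521% ± 0.0412 at PND0. E12.5 KO replicate 1 had 0.109% and the other 3 KO libraries of that stage had 0.02715% to 0.03533%. E16.5 WT replicate 1 had 0.1371% and the other 3 had 0.03966% to 0.06525%. Both were the libraries with the highest share of nuclear ribosomal RNA. Their protein shares were 0.721%, the lowest of its group, and 1.172%, inside the range of its group.

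The course of normal development was followed in WT, first over the whole span from E12.5 to PND0. Of 21 members with enough counts to test, 15 rose and 1 fell (edgeR quasi-likelihood test, Benjamini-Hochberg adjusted p under 0.05), against 70.9% of all 17681 genes past the threshold in either direction, 34.5% higher and 36.4% lower. Each of the 7 protein genes without a whole copy rose, by 1.05 to 1.80 on the log2 scale with a median of 1.17, against a median of -0.05 over all genes tested. The 2 ribosomal RNAs rose by 2.43 and 2.55. Of the 6 genes in the copied block, mt-Nd3 rose, mt-Atp8 fell and 4 did not pass.

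The small-subunit ribosomal RNA, mt-Rnr1, had 101.6, 102, 133 and 148.9 CPM in the E12.5 WT libraries (replicates 1 to 4) and 575.1, 616.4, 741.8 and 695.2 CPM at PND0, a log2 fold change of 2.43 (SE 0.138, adjusted p = 1.21e-07). For the large-subunit RNA, mt-Rnr2, the E12.5 libraries had 104.6, 136.4, 191.1 and 220.9 CPM and the PND0 libraries 557.7, 836.7, 1449 and 987.4 CPM, a log2 fold change of 2.55 (SE 0.299, adjusted p = 2.03e-05). Every PND0 library lay above every E12.5 library for both RNAs. The complex I gene mt-Nd4 had 611, 624.3, 615.6 and 602.8 CPM at E12.5 and 2011, 2060, 2369 and 2137 CPM at PND0, a log2 fold change of 1.80 (SE 0.0769, adjusted p = 2.9e-08). This was the largest rise among the protein genes without a whole copy.

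Over the same span mt-Co1 rose by 1.17 (SE 0.0847), mt-Nd1 by 1.17 (SE 0.119), mt-Nd2 by 1.12 (SE 0.109) and mt-Cytb by 1.05 (SE 0.0715) on the log2 scale, and no PND0 library overlapped with an E12.5 library, a separation that 32.1% of all genes had in the same direction. The log2 fold changes of mt-Nd5, 1.41 (SE 0.329), and mt-Nd6, 1.3 (SE 0.437), also passed, but their groups overlapped, and PND0 WT replicate 1 was low in both. The call of mt-Nd6 was lost when 5 of the 8 libraries were left out singly (adjusted p = 0.143 without E12.5 WT replicate 1). In the copied block, mt-Nd3, a small complex I subunit, had 2.388, 2.33, 1.731 and 2.073 CPM at E12.5 and 7.183, 11.04, 20.75 and 14.87 CPM at PND0. The ATP synthase gene mt-Atp8 went the other way, with 1.134, 1.656, 0.6345 and 1.573 CPM at E12.5 and 0.2896, 0.06455, 0.3968 and 0.1523 CPM at PND0. These 2 block genes changed by 2.66 (SE 0.309) and -2.44 (SE 0.502) on the log2 scale. At PND0 the libraries held 124 to 366 counts of mt-Nd3 but only 1 to 7 counts of mt-Atp8.

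The steps between neighbouring stages did not run in one direction. From E12.5 to E14.5, 10 of 19 tested members rose and 4 fell, against 57.8% of all genes past the threshold, 27.3% higher and 30.5% lower. From E14.5 to E16.5, 5 rose and 7 fell of 19, against 57.5% (29.3% and 28.2%), and from E16.5 to PND0, 14 rose and 1 fell of 21, against 53.2% (26.0% and 27.2%). Neighbouring steps share the libraries of the stage between them. On the log2 scale mt-Nd4 changed by 1.14, -0.55 and 1.14 over the 3 steps, mt-Co1 by 0.63, -0.35 and 0.82, and mt-Nd1 by 0.43, -0.36 and 1.03, and each of these changes passed the test. Of the others, mt-Cytb rose by 0.45, did not pass at -0.02, and rose by 0.55.

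**Figure D3:**
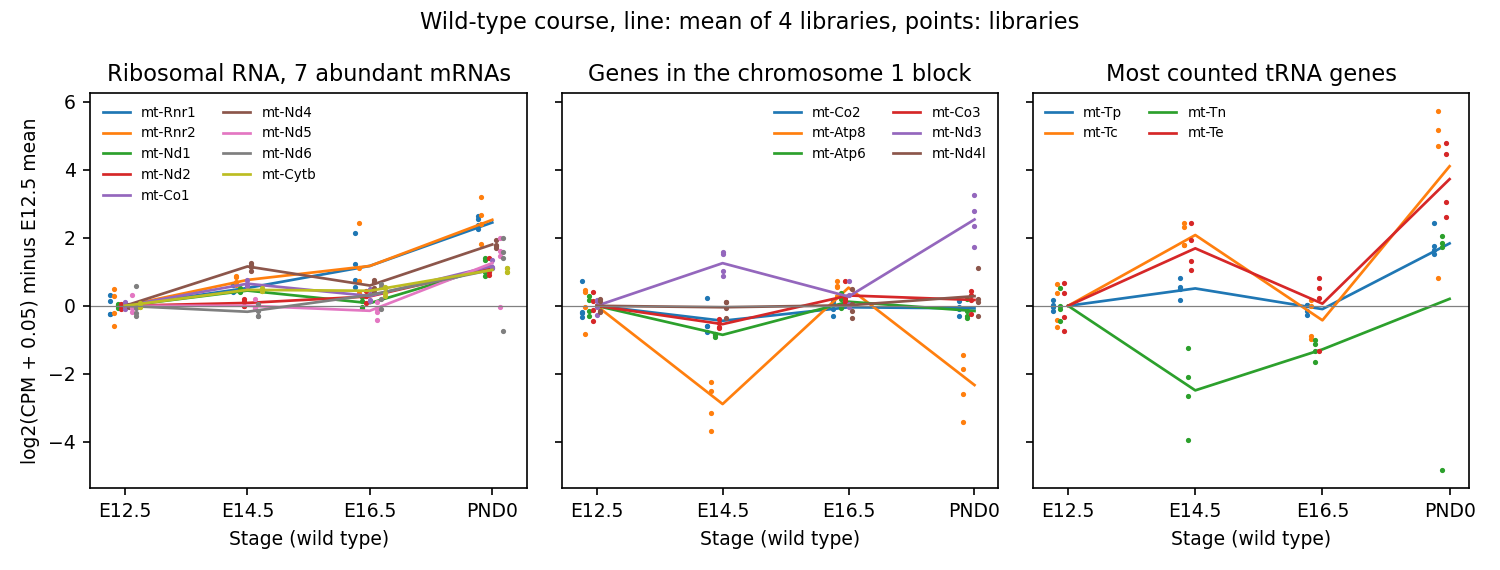
Level in WT at each stage as log2(CPM + 0.05) minus the E12.5 mean, with lines at the mean of 4 libraries and a point for each library. The ribosomal RNAs and abundant messenger RNAs (left) are highest at PND0, while mt-Atp8 (middle) and mt-Tc and mt-Te (right) alternate between stages.

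Inside the copied block the direction of mt-Atp8 and mt-Nd3 turned at each step. In the E14.5 WT libraries mt-Atp8 had 0.08844, 0.2099, 0.04535 and 0.1678 CPM, and at E16.5 it had 1.431, 1.785, 1.735 and 1.982 CPM. Its level fell by 3.21 on the log2 scale to E14.5, rose by 3.65 to E16.5 and fell by 2.94 to PND0, with no overlap between neighbouring stages. The same fall and rise passed the test for mt-Atp6 (-0.90 and 1.0) and mt-Co3 (-0.60 and 0.87), and their last step did not pass. The opposite order was seen for mt-Nd3, with log2 fold changes of 1.28, -0.98 and 2.30 that all passed, while mt-Co2 and mt-Nd4l passed at no step. Without E14.5 WT replicate 1 mt-Co2 passed at the first step (-0.74, adjusted p = 0.0395) and at the second (0.62, adjusted p = 0.000432). With offsets for transcript length, the change of mt-Co3 to E14.5 was -0.31 (adjusted p = 0.13) and from E16.5 to PND0 mt-Co2 turned from -0.09 to 0.48 (adjusted p = 0.00614) and mt-Nd4l went from 0.28 to 1.09 (adjusted p = 0.0133).

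The ribosomal RNAs rose at the first step, mt-Rnr1 by 0.49 (SE 0.125) and mt-Rnr2 by 0.69 (SE 0.207). The call of mt-Rnr2 was lost without E12.5 WT replicate 2 (adjusted p = 0.0506). At the second step neither passed, and E16.5 WT replicate 1 was the high library, as in mt-Rnr2 with 855.4, 340, 204.1 and 261.2 CPM. The log2 fold change of mt-Rnr2 was 0.65 with and 0.01 without this library, and that of mt-Rnr1 was 0.79 with and 0.35 without it. With the level of CT010467.1 as a covariate both passed, at 0.69 (adjusted p = 8.37e-06) and 0.87 (adjusted p = 2.07e-05). At the last step mt-Rnr1 rose by 1.09 (SE 0.365, adjusted p = 0.0429) and mt-Rnr2 had 1.15 (SE 0.551, adjusted p = 0.128), which became 1.78 (adjusted p = 0.00794) without that library. The call of mt-Rnr1 did not hold in 7 of the 8 fits that left out 1 library (adjusted p = 0.103 without E16.5 WT replicate 2). It held without E16.5 WT replicate 1 (1.52, adjusted p = 1.34e-05), and with the covariate its change was 0.58 (adjusted p = 0.00441).

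Calls of smaller size rested on few libraries too. From E14.5 to E16.5 mt-Nd2 (0.20) and mt-Nd6 (0.52) passed, and each call was lost in 6 of the 8 fits that left out 1 library. From E16.5 to PND0 mt-Nd2 rose by 0.78 (SE 0.11), while mt-Nd5 rose by 1.5 (SE 0.42) with a call that was lost in 5 of 8 such fits, and mt-Nd6, at 0.95, passed without PND0 WT replicate 1 only (1.28, adjusted p = 0.000861).

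Transfer RNAs were counted sparsely. In all 32 libraries together they had 12562 counts, of which mt-Tp held 53.9% and mt-Tc 13.6%, and mt-Tf, mt-Ts1, mt-Td and mt-Tk had no count. Of these, mt-Ts1, mt-Td and mt-Tk lie between genes of the copied block, and their match there was not measured. The 4 WT libraries of a stage together had 803, 1731, 558 and 4758 tRNA counts over the course. The cysteine tRNA mt-Tc had 0.6566, 0.2453, 0.2884 and 0.5361 CPM at E12.5, 2.388, 2.204, 1.497 and 1.51 CPM at E14.5, 0.4552, 0.403, 0.1795 and 0.1919 CPM at E16.5, and 0.753, 11.75, 23.64 and 16.04 CPM at PND0. It rose by 2.08, fell by 2.60 and rose by 5.32 on the log2 scale over the 3 steps. The glutamate tRNA mt-Te followed the same order (1.79, -1.66 and 3.87), as did the proline tRNA mt-Tp (0.51, -0.62 and 1.92), and all 6 of these changes passed.

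The asparagine tRNA mt-Tn fell by 2.46 at the first step, and its rise of 2.78 at the last step was lost in 7 of 8 fits that left out 1 library. It had no count in PND0 WT replicate 1, which allows up to 0.174 CPM, and 4.648 to 5.839 CPM in the other 3. The part of its match to Cep295 in these counts was not tested. The serine tRNA mt-Ts2 had no count in any E16.5 WT library and 1.564, 1.033, 4.591 and 3.452 CPM at PND0. Against a floor of 3 counts in the shallowest of the E16.5 libraries (0.195 CPM) this was at least 13.6-fold higher. A tRNA count can come from a mature tRNA or from an uncut precursor, and the tables do not tell these apart. The genes mt-Tp, mt-Tc, mt-Tn and mt-Te lie on the minus strand. Whether counting used the strand of a read is not given, so reads of plus-strand RNA at these places cannot be told apart either.

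Other measures moved with the stages. The share of the nuclear ribosomal RNA CT010467.1 in WT was 0.3386% ± 0.0512, 1.114% ± 0.061, 1.306% ± 1.64 and 2.216% ± 0.422 over the 4 stages, and at E16.5 it was 0.3559% to 0.6263% without replicate 1. With its level as a covariate no member and no other gene passed from E12.5 to E14.5 or to PND0, stages that this level separates completely. At the other 2 steps, where 57.5% and 53.2% of all genes passed without the covariate, 14 and 12 members passed with it. The share of all genes with it is not given here. With the covariate the changes of mt-Atp8 were 3.59 and -2.78 and those of mt-Nd3 -0.97 and 2.22. Those of mt-Te were -1.58 and 3.43 and those of mt-Nd4 -0.52 and 1.06, and all of these passed the threshold. For mt-Tc they were -2.51, which passed, and 5.0 (adjusted p = 0.0577). Of 7 neuron markers all rose from E12.5 to PND0 (summed 2782 to 5032 and 6740 to 7501 CPM), of 7 progenitor markers 2 rose and 5 fell, and of 9 erythroid markers 8 fell (summed 1973 to 9043 and 200.2 to 267.6 CPM, with Hbb-bh1 at 0 in PND0 WT). In whole tissue, fewer cells of a type and less RNA per cell cannot be told apart, and the part of these markers in the course of the members was not tested.

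Most nuclear subunits of the same complexes fell while the abundant mitochondrial ones rose. From E12.5 to PND0, 3 of 36 complex I subunits rose and 27 fell (median -0.41), beside 34.5% and 36.4% of all genes. The counts were 1 and 6 of 9 complex III subunits (median -0.38), 0 and 9 of 11 complex IV subunits (median -0.45), and 1 and 11 of 15 ATP synthase subunits (median -0.39). Ndufa2, an accessory subunit of complex I, fell by 2.01, Cox7c of complex IV by 1.16 and Atp5k of the ATP synthase by 2.63 on the log2 scale, while Ndufb9 rose by 0.43. These lists alternated as well: in complex I, 3 rose and 29 fell to E14.5, 30 rose and 1 fell to E16.5, and 0 rose and 29 fell to PND0. Beside these steps stand 57.8%, 57.5% and 53.2% of all genes past the threshold in either direction. Offsets for transcript length turned the sign of mt-Co2 and mt-Atp6 over the whole span. Values with such offsets are not given for the nuclear subunits, and the part of transcript length in their changes was not tested.

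Proteins that copy, cut or translate mitochondrial RNA came from the nucleus too. From E12.5 to PND0, 4 of 17 genes for transcription and replication of mitochondrial DNA rose and 10 fell, beside 70.9% of all genes past the threshold in either direction. Ppargc1a, a coactivator of mitochondrial biogenesis, rose by 1.56 and Top1mt, a mitochondrial topoisomerase, by 1.16, while Ssbp1, which binds single-stranded mitochondrial DNA, fell by 1.42. Lrpprc, which stabilizes mitochondrial messenger RNAs, rose by 0.50, and Hsd17b10, a subunit of the RNase that frees tRNA 5' ends, fell by 1.03. Of the large-subunit proteins of the mitochondrial ribosome 0 rose and 40 fell among 47 tested. Of the small-subunit proteins 0 rose and 20 fell among 29, beside 36.4% of all genes lower, while both ribosomal RNAs rose. The part of transcript length in these changes was not tested.

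Loss of Dhcr7 was then compared with WT at each stage. At E12.5, 0 of 17 tested members passed the edgeR test, against 0.0177% of all genes, 0 had an unadjusted p under 0.05 and DESeq2 called 0. The 13 protein genes had a median log2 fold change of -0.02, between -0.67 for mt-Nd4l and 0.42 for mt-Atp8, beside 0.00 over all genes. Without KO replicate 1 mt-Nd4l had -0.38, and without KO replicate 2 mt-Atp8 had 0.02. The 2 ribosomal RNAs stood at 0.72 (mt-Rnr1, SE 0.377) and 0.94 (mt-Rnr2, SE 0.499), values that rested on 1 library. KO replicate 1 had 416.7 CPM of mt-Rnr1 and the other KO libraries 153.5, 136.5 and 112.7 CPM, and without it the log2 fold changes were 0.11 (SE 0.152) and 0.09 (SE 0.232). That library also had the lowest mt-Nd2 (613.1 CPM against 857.9 to 943 CPM in the other 3) and mt-Nd4l (0.3086 against 1.209 to 1.735 CPM). The 9 erythroid markers were all below 0 at this stage (median -1.05, sums of 1973 to 9043 CPM in WT and 1598 to 4955 CPM in KO), as were 8 of 8 muscle markers (median -1.65). None of these markers passed, and their part in the values of the members was not tested.

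**Figure D4:**
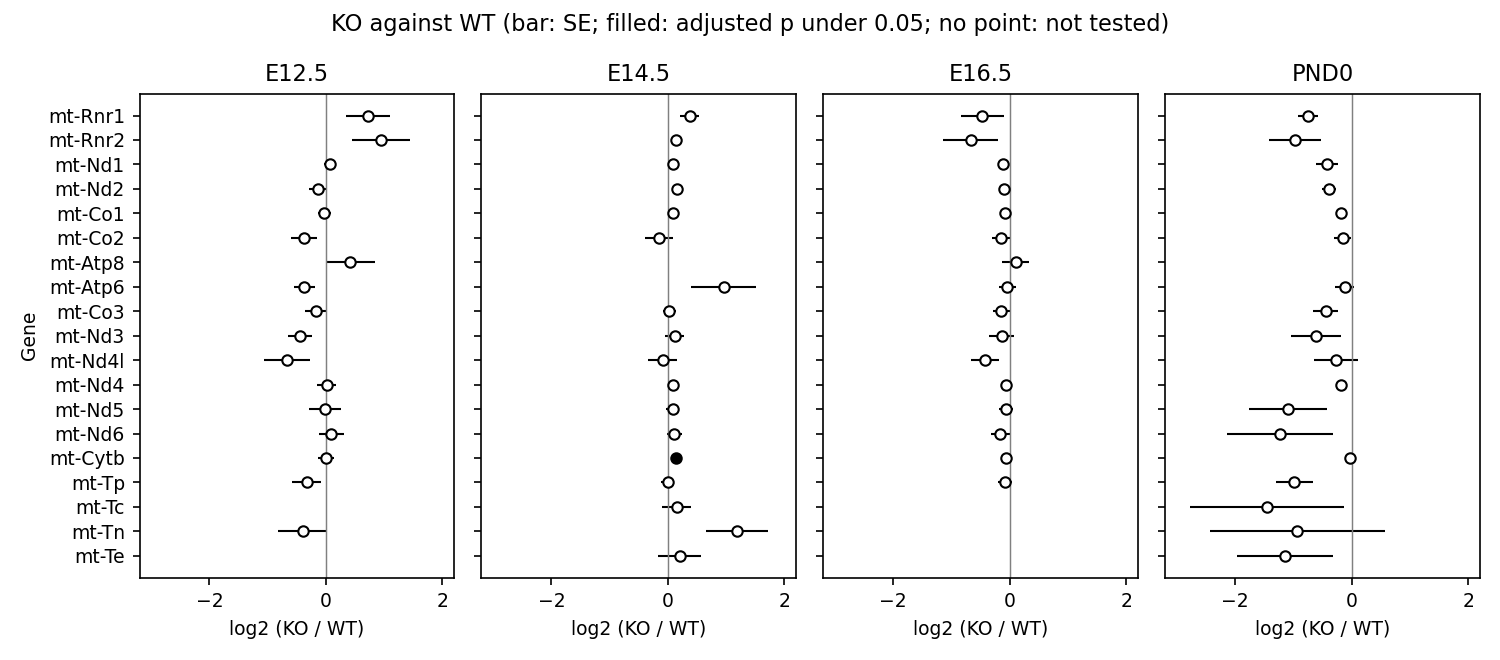
Log2 fold change of KO against WT for the ribosomal RNA and protein genes and 4 tRNAs at each stage, with bars for the SE and a filled point where the adjusted p was under 0.05. The single filled point is mt-Cytb at E14.5 (0.14), and at PND0 the points lie between -1.46 and -0.03.

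At E14.5, 1 of 23 tested members passed, mt-Cytb, against 0.527% of all genes. Cytochrome b is the mitochondrially encoded subunit of complex III (chrM:14145-15288, plus strand). It had 2720, 2886, 2723 and 2759 CPM in WT and 3096, 3061, 3119 and 2916 CPM in KO, a log2 fold change of 0.14 (SE 0.0275, adjusted p = 0.00429). Each KO library was above each WT library. Only 1 other member had groups that did not overlap, mt-Atp6, and such separation with KO higher held for 2.18% of all genes. Its WT libraries had 6.501, 6.752, 6.304 and 6.755 CPM and its KO libraries 7.497, 7.643, 29.84 and 7.451 CPM, a log2 fold change of 0.96 (SE 0.56, adjusted p = 0.71). Without KO replicate 3 it was 0.19 (adjusted p = 0.789).

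The call of mt-Cytb was lost when either of 2 WT libraries was left out. Without WT replicate 1 its adjusted p was 0.0541 and without WT replicate 4 it was 0.0575, with log2 fold changes of 0.13, and in a fit of all 32 libraries, which takes the spread over the stages, 0 members passed. Without WT replicate 2, 4 members passed, mt-Nd1 (0.12), mt-Nd2 (0.20), mt-Co1 (0.12) and mt-Cytb (0.16). The number of all genes that passed also moved, from 94 in the main fit to between 52 and 155 when single libraries were left out. All 7 protein genes without a whole copy had a log2 fold change above 0, from 0.09 to 0.15, beside a median of 0.00 over all genes, and no complex III subunit encoded in the nucleus passed. At this stage 0 of 36 complex I, 0 of 11 complex IV and 0 of 15 ATP synthase subunits of the nucleus passed either.

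At E16.5, 0 of 16 tested members passed the edgeR test, against 0.0462% of all genes, 0 had an unadjusted p under 0.05 and DESeq2 called 0. The protein genes lay between -0.43 (mt-Nd4l, SE 0.246) and 0.10 (mt-Atp8, SE 0.231), with a median of -0.09 beside 0.00 over all genes. Again the ribosomal RNAs had the widest spread, with -0.47 (SE 0.365) for mt-Rnr1 and -0.67 (SE 0.474) for mt-Rnr2, and WT replicate 1 was the high library. In WT, mt-Rnr1 had 528.7, 282.7, 174.4 and 203.6 CPM and in KO 226.6, 225.2, 203.5 and 206.2 CPM, and without that library both log2 fold changes were -0.04.

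At PND0, 0 of 25 tested members passed the edgeR test, against 1.44% of all genes, although 25 of 25 had a log2 fold change below 0. An unadjusted p under 0.05 was reached by 5 members, a count given without the share of all genes at that rule. DESeq2 called 2, mt-Rnr1 and mt-Nd2, and over all genes it also called more than edgeR at this stage. The medians were -0.33 over the protein genes tested, -0.86 over the ribosomal RNAs and -1.10 over 11 tRNAs, beside 0.00 over all genes. Members share their libraries and their precursor RNAs, so their common sign is not 25 separate observations. Groups did not overlap for 2 members, both lower in KO, and such separation held for 6.27% of all genes.

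The smallest p was that of mt-Rnr1, with 575.1, 616.4, 741.8 and 695.2 CPM in WT and 324.8, 550.4, 352.6 and 338.8 CPM in KO, a log2 fold change of -0.75 (SE 0.169, adjusted p = 0.0661). Each KO library was below each WT library, with KO replicate 2 close to WT. Without that replicate the change was -0.95 (adjusted p = 0.000352), and mt-Tp passed as well (-1.36, adjusted p = 0.0118). The second member without overlap was mt-Nd4, with 2011, 2060, 2369 and 2137 CPM in WT and 1658, 2000, 1904 and 1988 CPM in KO (log2 fold change -0.18, SE 0.0742, adjusted p = 0.204). For mt-Nd2 the values were 1794, 1704, 2396 and 2015 CPM in WT and 1241, 1756, 1536 and 1485 CPM in KO (log2 fold change -0.39, SE 0.119, adjusted p = 0.114). Cytochrome b, the gene that passed at E14.5, had -0.03 here (SE 0.0742).

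A wide spread within each genotype at PND0 was seen for mt-Nd5, mt-Nd6 and mt-Tc. The complex I gene mt-Nd5 had 750.5, 2131, 3056 and 2383 CPM in WT and 478.7, 2186, 563.3 and 688.1 CPM in KO. Its overlapping neighbour mt-Nd6 had 147.4, 641.1, 969.5 and 733.3 CPM in WT and 88.54, 714.3, 94.22 and 166 CPM in KO. For mt-Tc the values were 0.753, 11.75, 23.64 and 16.04 CPM in WT and 1.499, 16.36, 0.8607 and 0.6596 CPM in KO. In all 3 genes WT replicates 2 to 4 and KO replicate 2 were high, and WT replicate 1 and KO replicates 1, 3 and 4 were low.

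**Figure D5:**
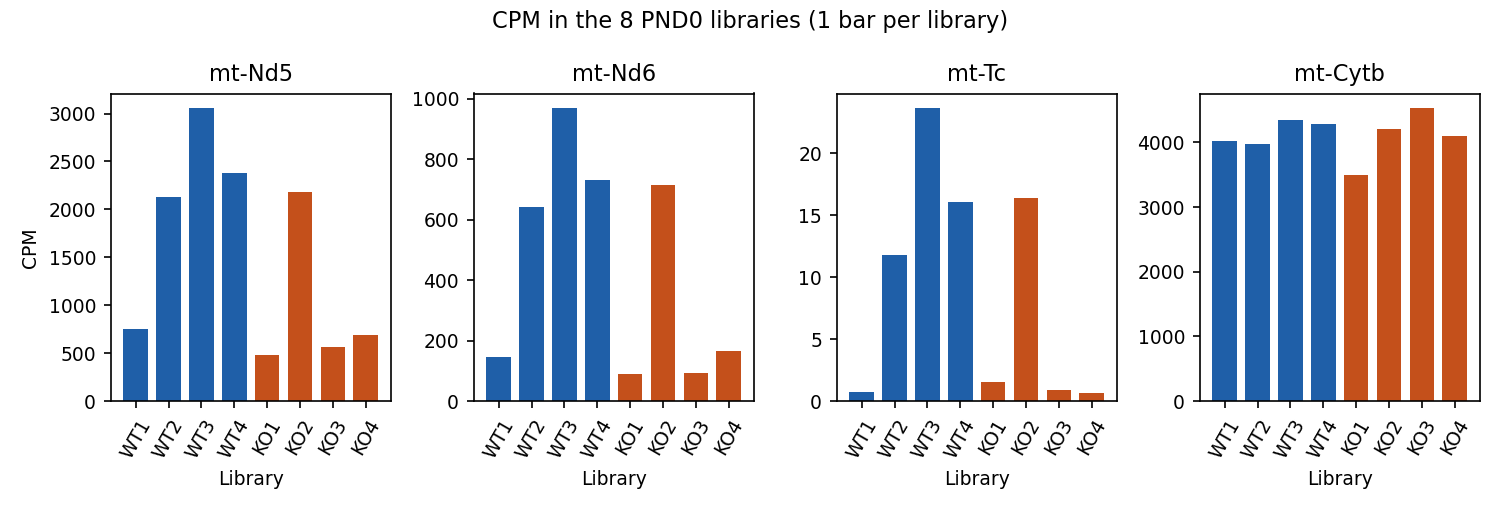
Level in CPM of mt-Nd5, mt-Nd6, mt-Tc and mt-Cytb in each of the 8 PND0 libraries, WT in blue and KO in orange, with axes from 0. For mt-Nd5, mt-Nd6 and mt-Tc, WT replicate 1 lies with KO replicates 1, 3 and 4 and KO replicate 2 with the other WT libraries, while mt-Cytb runs from 3495 to 4529 CPM.

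The same libraries differed in the makeup of the protein class. As a share of its counts, mt-Nd5 took 3.901% in WT replicate 1 and 2.938% to 3.972% in KO replicates 1, 3 and 4, but 9.792% in KO replicate 2 and 10.03% to 11.68% in the other WT libraries. The share of mt-Cytb was 23.44% to 23.68% in KO replicates 1, 3 and 4, 20.94% in WT replicate 1 and 16.62% to 18.85% in the remaining 4. At E14.5, the share of mt-Nd5 was between 4.996% and 6.048% in all 8 libraries. The log2 fold changes of KO against WT at PND0 were -1.09 (SE 0.668) for mt-Nd5, -1.23 (SE 0.916) for mt-Nd6 and -1.46 (SE 1.32) for mt-Tc. Without KO replicate 2 they were -1.85, -2.42 and -3.67, and none of them passed.

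Other measures also differed between the PND0 libraries. The CT010467.1 share was 1.799% to 2.785% in WT and 1.157% to 2.088% in KO, with KO replicate 2 the highest KO library. The median deviation of 3510 long nuclear genes (5000 bases or more) minus that of 2298 short ones (1500 bases or less) was 0.20, 0.05, 0.21 and 0.09 in WT and -0.13, -0.12, -0.27 and -0.05 in KO on the log2 scale, with no overlap between the groups. With offsets for transcript length mt-Rnr1 had -0.90 (adjusted p = 0.0787) and mt-Nd5 -1.18, and with the CT010467.1 covariate -0.42 and -0.43. Of the 9 erythroid markers 6 were tested and 0 passed (median 1.94), with sums of 200.2 to 267.6 CPM in WT and 234.4 to 2295 CPM in KO. Hbb-bh1 was at 0 in WT and KO, and Hbb-y was at 0 in KO. The 6 hindbrain and spinal cord markers summed to 1.274 to 6.447 CPM in WT and 0.2398 to 0.5279 CPM in KO, again with no overlap. In KO 5 of these hindbrain markers were at 0, and 3 of the 5 (Hoxb4, Hoxb6 and Hoxb8) were at 0 in WT as well. The 1 marker with enough counts to test passed, with a log2 fold change of -3.14. The 6 choroid plexus markers summed to 341.2 to 640.9 CPM in WT, lowest in replicate 3, and to 634.8 to 1019 CPM in KO, lowest in replicate 2, and 0 of 6 passed (median 0.16). The part of these measures in the PND0 values was not tested.

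Most nuclear partners had values above 0. At PND0, 32 of 36 complex I subunits had a log2 fold change above 0 (median 0.20), as did 11 of 11 for complex IV (median 0.20) and 12 of 15 for the ATP synthase (median 0.14), and 0 of these passed. Among 47 large-subunit proteins of the mitochondrial ribosome 40 were above 0 (median 0.10), and 0 passed. As given above, long minus short nuclear genes was 0.05 to 0.21 in WT and -0.27 to -0.05 in KO at this stage. The share of all genes above 0 is not given here, and the part of transcript length in these values was not tested.

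A fit of all 32 libraries asked whether the KO change differed between stages. Among 26 members 0 passed the edgeR test, against 0.0256% of 19541 genes. An unadjusted edgeR p under 0.05 was reached by 6 members and by 2635 of the 19541 genes. DESeq2 called 0 members. The smallest edgeR p belonged to mt-Rnr1 (adjusted p = 0.245), whose log2 fold changes were 0.72, 0.38, -0.47 and -0.75 over the 4 stages. At E14.5 mt-Rnr1 had 157.1 to 186.4 CPM in WT and 176.9, 193.5, 267 and 260.2 CPM in KO. Replicates 3 and 4 of that KO group were also high in CT010467.1. The change there was 0.28 with KO replicate 3 left out and 0.29 with KO replicate 4 left out. Each of these fits keeps the other high library, and a fit without both was not run. Without E12.5 KO replicate 1, mt-Nd2 was 1 of 797 genes that passed, against 5 genes with all libraries. Its log2 fold changes were -0.03 at E12.5 in that case, then 0.15, -0.09 and -0.39 at the later stages. A change that passes at one stage only, as that of mt-Cytb at E14.5, was therefore not shown to differ from the other stages.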

How the data were processed

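RNA sequencing of 32 mouse brain libraries gave 4 tables of gene counts, 1 per stage. These are the counts the authors deposited, whole numbers per gene with no normalization. The submitters' processing notes name the tools HISAT2, SAMtools, featureCounts and DESeq2 and the build mm10. How featureCounts treated strand, reads with more than 1 position and reads over 2 genes is not given in the sources used here.

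Each comparison was fitted on all genes with edgeR 4.0.16 in R 4.3.3: the default filter on low counts (minimum count 10, minimum total 15), TMM scaling, a robust quasi-likelihood F test and Benjamini-Hochberg adjustment over all genes tested, with a threshold of 0.05. CPM are counts of a gene per M counts of its library, after TMM scaling over all libraries, and CPM per kb are these divided by gene length. An SE is the absolute log2 fold change divided by the square root of F. The steps were tested on simulated data. Each KO stage used its own 8 libraries, each WT step the 8 libraries of 2 stages, and the test of stage differences all 32. Class shares are counts of the class as a percent of all counts and have no test.

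Gene positions and sequences came from the GENCODE M21 transcripts of GRCm38. Matches to nuclear transcripts were searched with blastn 2.17.0 (at least 50 bases and 90% identity). Of 55291 symbols, 53292 matched a gene by name and 406 by a synonym. No replicate was a copy of another, since chi-square per degree of freedom was 2.899 to 114.7 over 48 pairs.

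The members, gene lists and tests were chosen with earlier results of these data known. All protein and ribosomal RNA members are named, singly at most the 6 most counted tRNAs among those tested, and from each nuclear list at most the 2 genes of smallest p in each direction. Alternatives were DESeq2 1.42.0, size factors by RLE, tests with no filter, a replicate block, 1 fit of all libraries, library sizes from nuclear genes, transcript length offsets, a covariate for CT010467.1, and leaving out each library in turn. The limit that a count of 0 allows was taken as 3 counts, and it covers counting error only.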

Additional observations from a re-analysis of the deposited data

Results flagged for a closer look

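In 152 groups of 4 libraries a single library was sought whose gap to the nearest other library exceeded Dixon's 95% critical value as a part of the group's range, which chance alone does in about 1 in 20 groups. It was found in 19 groups. These groups share libraries, so they are not separate observations.

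In PND0 KO replicate 2 the ribosomal RNA share of counts was 0.1336% and the tRNA share 0.007225%, both the highest of the group. The same library was the highest of its group for mt-Nd5 (2186 CPM), mt-Nd6 (714.3 CPM) and mt-Rnr1 (550.4 CPM).

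E12.5 KO replicate 1 was the highest of its group in the ribosomal RNA share (0.109%), in mt-Rnr1 (416.7 CPM) and in mt-Rnr2 (750.1 CPM). E14.5 KO replicate 4 was the lowest of its group in the protein share (1.368%), in the share of all members (1.424%), in mt-Co1 (5712 CPM) and in mt-Nd4 (1349 CPM).

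The other flags concerned 1 gene each. In WT they were mt-Co1 in PND0 replicate 3 (9282 CPM), mt-Co2 in E12.5 replicate 4 (42.14 CPM) and in E14.5 replicate 1 (29.85 CPM), mt-Co3 in E16.5 replicate 2 (19.69 CPM) and mt-Nd5 in E14.5 replicate 2 (891 CPM), each the highest of its group. In KO, mt-Atp6 was high in E14.5 replicate 3 (29.84 CPM) and mt-Co3 was low in E12.5 replicate 4 (8.885 CPM).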

How the results depend on the processing

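Counts of members past the threshold changed as follows. At E14.5 the 1 member called in KO against WT became 3 with no filter on low counts (mt-Nd2, mt-Co1 and mt-Cytb) and 0 in 1 fit of all 32 libraries, and it was 0 to 4 when single libraries were left out. At PND0 the count of 0 became 4 with no filter (mt-Rnr1, mt-Nd2, mt-Tp and mt-Tl2, the last named after its values were seen), 2 with DESeq2, 3 in 1 fit of all 32 libraries (mt-Nd1, mt-Nd2 and mt-Tp), and 0 to 2 when single libraries were left out. In WT the count from E12.5 to PND0, 16, became 25 with no filter and 25 with DESeq2, and that from E16.5 to PND0, 15, became 24 with DESeq2. With the CT010467.1 covariate the counts from E12.5 to E14.5 (14) and to PND0 (16) both became 0, as did those of all genes. The test of stage differences called 0 to 1 member when single libraries were left out.

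The replicate number as a block gave 1 call at PND0, mt-Rnr1 (log2 fold change -0.77, adjusted p = 0.048). The labels do not say that a number marks a shared animal or litter, and correlations of same-numbered deviations ran from -0.196 to 0.272 over the comparisons, with no comparison in which each pair exceeded 0.1. The numbers are therefore not taken to pair the samples.

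These log2 fold changes of protein and ribosomal RNA genes turned sign, and the cause was not tested. With the CT010467.1 covariate mt-Rnr1, mt-Rnr2 and mt-Nd4l had -0.84, -1.06 and 0.84 from E12.5 to E14.5, mt-Cytb 0.00 from E14.5 to E16.5, and mt-Co3 and mt-Atp6 -0.76 and 0.38 from E12.5 to PND0. In KO against WT the covariate gave mt-Co1 0.03 and mt-Nd5 0.11 at E12.5, mt-Rnr1 0.02 and mt-Rnr2 0.03 at E16.5, and mt-Nd4l 0.14 and mt-Cytb 0.00 at PND0. With length offsets mt-Nd4l, mt-Nd5 and mt-Nd6 had 0.26, 0.07 and 0.11 from E12.5 to E14.5, and mt-Nd2 and mt-Nd4l had -0.03 and -0.28 from E14.5 to E16.5. The offsets gave mt-Co2, mt-Atp6 and mt-Co3 0.48, 0.25 and 0.33 from E16.5 to PND0, and mt-Co2 and mt-Atp6 0.44 and 0.43 from E12.5 to PND0. In KO against WT they gave mt-Nd4 -0.02 and mt-Cytb -0.04 at E12.5, and mt-Atp6 0.07, mt-Nd3 0.00 and mt-Cytb 0.01 at E16.5. At E12.5 the block gave mt-Nd4 -0.02 and mt-Cytb -0.01, RLE size factors and no filter both gave mt-Cytb -0.00, and 1 fit of all libraries gave mt-Co1 and mt-Nd5 0.00. DESeq2 gave mt-Nd5 0.00 from E12.5 to E14.5.

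Leaving out single libraries also turned signs. In KO against WT at E12.5 the ranges were -0.08 to 0.05 for mt-Co1, -0.07 to 0.09 for mt-Cytb, -0.08 to 0.15 for mt-Nd4, -0.17 to 0.20 for mt-Nd5 and -0.06 to 0.32 for mt-Nd6. At E14.5 they were -0.27 to 0.12 for mt-Co2 and -0.01 to 0.08 for mt-Co3. At E16.5 they were -0.19 to 0.06 for mt-Atp6, -0.09 to 0.22 for mt-Atp8, -0.24 to 0.02 for mt-Co3, -0.26 to 0.06 for mt-Nd3 and -0.15 to 0.04 for mt-Nd5. At PND0 they were -0.20 to 0.01 for mt-Atp6, -0.52 to 0.10 for mt-Nd4l and -0.08 to 0.04 for mt-Cytb. In WT they were -0.13 to 0.05 for mt-Nd4l and -0.09 to 0.09 for mt-Nd5 from E12.5 to E14.5, -0.09 to 0.20 for mt-Nd4l and -0.06 to 0.03 for mt-Cytb from E14.5 to E16.5, -0.08 to 0.47 for mt-Nd4l from E16.5 to PND0, and -0.25 to 0.17 for mt-Co2 from E12.5 to PND0.

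Class shares moved by less than their SD under the other denominators. Without E12.5 KO replicate 1 the mean ribosomal RNA share of that group was 0.0313% in place of 0.05074%, and without PND0 KO replicate 2 the mean tRNA share was 0.001546% in place of 0.002966%.

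The number of all genes called also depended on the processing. At PND0 it was 250, against 1091 with no filter, 921 with DESeq2, 1205 in 1 fit of all 32 libraries, 46 with length offsets, 2 with the covariate and 35 to 263 with single libraries left out. At E12.5 it was 3, against 30 with DESeq2, 52 in the fit of all 32 and 6 with the block. At E14.5 it was 94, against 146 with no filter, 4 in the fit of all 32 and 52 to 155 with single libraries left out. At E16.5 it was 8, against 233 with no filter, 168 with DESeq2, 3 in the fit of all 32, 5 with the block and 3 to 14 with single libraries left out. The test of stage differences called 5 genes, against 11 with no filter, 344 with DESeq2, 0 with the block and 0 to 797 with single libraries left out, the highest without E12.5 KO replicate 1.

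Depth limits the tRNAs and 2 genes of the copied block, mt-Atp8 with 1 to 47 and mt-Nd4l with 4 to 75 counts in a library.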

Other observations

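Glycolysis makes ATP outside the mitochondrion. In WT, from E12.5 to PND0, 8 of 17 glycolysis enzymes rose and 5 fell, with a median log2 fold change of 0.16, against 34.5% of all genes higher and 36.4% lower (edgeR quasi-likelihood test, Benjamini-Hochberg adjustment). Hk1, the hexokinase of brain that binds mitochondria, had 80.69 ± 4.96 CPM at E12.5 and 303.7 ± 17 CPM at PND0 (SD, n = 4) and rose by 1.91 on the log2 scale. Hk2, its relative, went from 38.15 ± 8.95 to 8.464 ± 1.63 CPM and fell by 2.18. Eno2, the neuronal enolase, rose by 2.81 and Pkm, pyruvate kinase, fell by 1.38. In KO against WT, 1 of the 17 passed at E14.5, Pgam1, a phosphoglycerate mutase, which fell by 0.16 (adjusted p = 0.015, edgeR), and 0 passed at the other stages, where 0, 3 and 0 had an unadjusted p under 0.05 at E12.5, E16.5 and PND0.

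The 7 pseudogenes of the chromosome 1 block were tested like other genes. From E12.5 to PND0 in WT 3 rose and 1 fell, against 34.5% of all genes higher and 36.4% lower. Their median log2 fold change was 0.38, beside 1.17 for the 7 protein genes without a whole copy in the block. It was 0.00 for the 6 protein genes inside the block, of which the match of mt-Atp8 was not measured. At PND0 their median in KO against WT was -0.02 and 0 passed the edgeR test, with 0 at an unadjusted p under 0.05.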
